A study of Homo sapiens with 12 samples.

Results

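The cap-binding complex eIF4F joins capped mRNAs to the ribosome, and 9 of the 59385 gene names in the count table were chosen by name as those of its subunits, their closest paralogs and its helpers. They are EIF4G1, EIF4G2 and EIF4G3 (scaffold proteins), EIF4E and EIF4E2 (cap-binding proteins), EIF4A1 and EIF4A2 (RNA helicases), and EIF4B and EIF4H (stimulators of the helicase). The rule is by name, but earlier results of these data were known when it was set. They were followed in HEK293T cells, which derive from human embryonic kidney, in 2 lines that carried a doxycycline (Dox)-inducible shRNA, either a non-silencing control (shCtrl) or an shRNA against PRRC2B (shPRRC2B), an RNA-binding protein. Both lines were induced with Dox, and each was grown from a single clone, so the shRNA cannot be told apart from the clone. Total RNA and polysome-associated RNA, the pooled heavy fractions of a sucrose gradient, were each sequenced in 3 biological replicates per line, which gave 12 libraries in 4 groups.

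In cap-dependent initiation eIF4E binds the cap of the mRNA and eIF4G binds eIF4E, the helicase eIF4A, the poly(A)-binding protein and eIF3, which brings the small ribosomal subunit. eIF4G2 (also called DAP5) lacks the part of eIF4G1 that binds eIF4E, and eIF4E2 (4EHP) binds the cap but does not assemble the usual complex and is known from translational repression. eIF4B and eIF4H raise the activity of eIF4A, which unwinds structure ahead of the start codon. The mRNAs of ribosomal proteins and of some initiation factors begin with a C and a run of pyrimidines, the terminal oligopyrimidine motif by which mTOR signalling controls their translation.

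The start codons of the 3 scaffold genes are shown because they set EIF4G2 apart. Each line gives 30 bases of the canonical GENCODE 44 transcript on GRCh38, with the start codon in capitals. The start codons lie on chromosome 3 from 184315797 to 184315799 on the plus strand (EIF4G1), on chromosome 11 from 10807293 to 10807295 on the minus strand (EIF4G2) and on chromosome 1 from 21002740 to 21002742 on the minus strand (EIF4G3). EIF4G2 is annotated with GTG in place of ATG.
EIF4G1: gcaccaaatgaaATGaacaaagctccacag
EIF4G2: caagccgccaaaGTGgagagtgcgattgca
EIF4G3: acccctcagacaATGaattcacaacctcaa

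The first 20 bases from the gene start are shown for the helicase genes and their helpers, because the pyrimidine runs at their starts differ in length. They come from RefSeq (GRCh38.p14), where all 9 genes were matched, and the run of pyrimidines that begins at the gene start is in capitals.
EIF4A2: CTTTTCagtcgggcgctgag
EIF4B: CTTTTgcgttctctttccct
EIF4A1: CCTagtttctaaggatcatg
EIF4H: CTggttcctctcggagcgga
A C at the gene start followed by 4 or more pyrimidines, read on the strand of the gene, was found at EIF4A2 (chromosome 3, start 186783577) and EIF4B (chromosome 12, start 53006456) and at no RefSeq start of the other 7 genes. It was found in 1429 of 35116 promoters in the table (4.07%). The match describes these letters and does not show how the mRNA is controlled.

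Levels are counts relative to library size (CPM), scaled by TMM over the 12 libraries, and a level is a share of its library, so fewer copies per cell and a smaller part of the cells with the mRNA cannot be told apart. Libraries held 9855734 to 20837542 counts. The log2 CPM of replicates correlated at 0.989 to 0.992 within total RNA, at 0.954 to 0.965 within shCtrl polysome RNA and at 0.973 to 0.976 within shPRRC2B polysome RNA, and in both lines polysome replicate 1 was the library farthest from the other 2. PRRC2B itself was at 281 ± 28.7 CPM in shCtrl and 100.3 ± 2.32 CPM in shPRRC2B total RNA (mean ± SD, n = 3), a log2 change of -1.49 (SE 0.17). All 8 genes listed as typical of HEK293T passed the filter on low counts, and none of 5 blood, liver and endothelial genes did. The lines differed in these markers: 6 of 8 were called in total RNA and 6 of 8 in TE. Of all genes tested 29.0% and 27.1% were called there. In total RNA the markers called were KRT8 (-2.13), NEFM (-1.57), NES (1.47), LIN28B (1.07), VIM (0.96) and IGF2BP1 (0.52) on the log2 scale. The part of the markers in the changes of the members was not tested.

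All 9 genes passed that filter and were tested. A difference was called at an adjusted p under 0.05 with a log2 value above 0.5 or below -0.5 (edgeR's quasi-likelihood test, adjusted over the 18166 genes tested). The lines were compared in 3 contrasts: total RNA, polysome RNA, and translation efficiency (TE), the polysome-to-total ratio of shPRRC2B over that of shCtrl. Another pair compared polysome with total RNA within each line.

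The counts of EIF4A1 (chromosome 17, 7572824 to 7579006) stand on little of that gene. Every base of its canonical transcript (100.0% of 1758 nt) lies in exons that GENCODE 44 also gives to other entries, among them the readthrough gene SENP3-EIF4A1, and read pairs on more than 1 gene were not counted under the options that the methods state. EIF4A1 had 3, 10 and 8 counts in the shCtrl polysome libraries and 35, 16 and 10 in the shPRRC2B polysome libraries. Its values are therefore given, but they are not the level of EIF4A1 mRNA. In the other members that share was at most 11.98%, which is the part of the canonical EIF4B transcript that overlaps the antisense entry TNS2-AS1. EIF4A2 shares 4.295% of its canonical transcript with other entries, small RNAs among them. No strand option is stated, so reads of EIF4B and TNS2-AS1 cannot be told apart where they overlap.

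**Figure D1:**
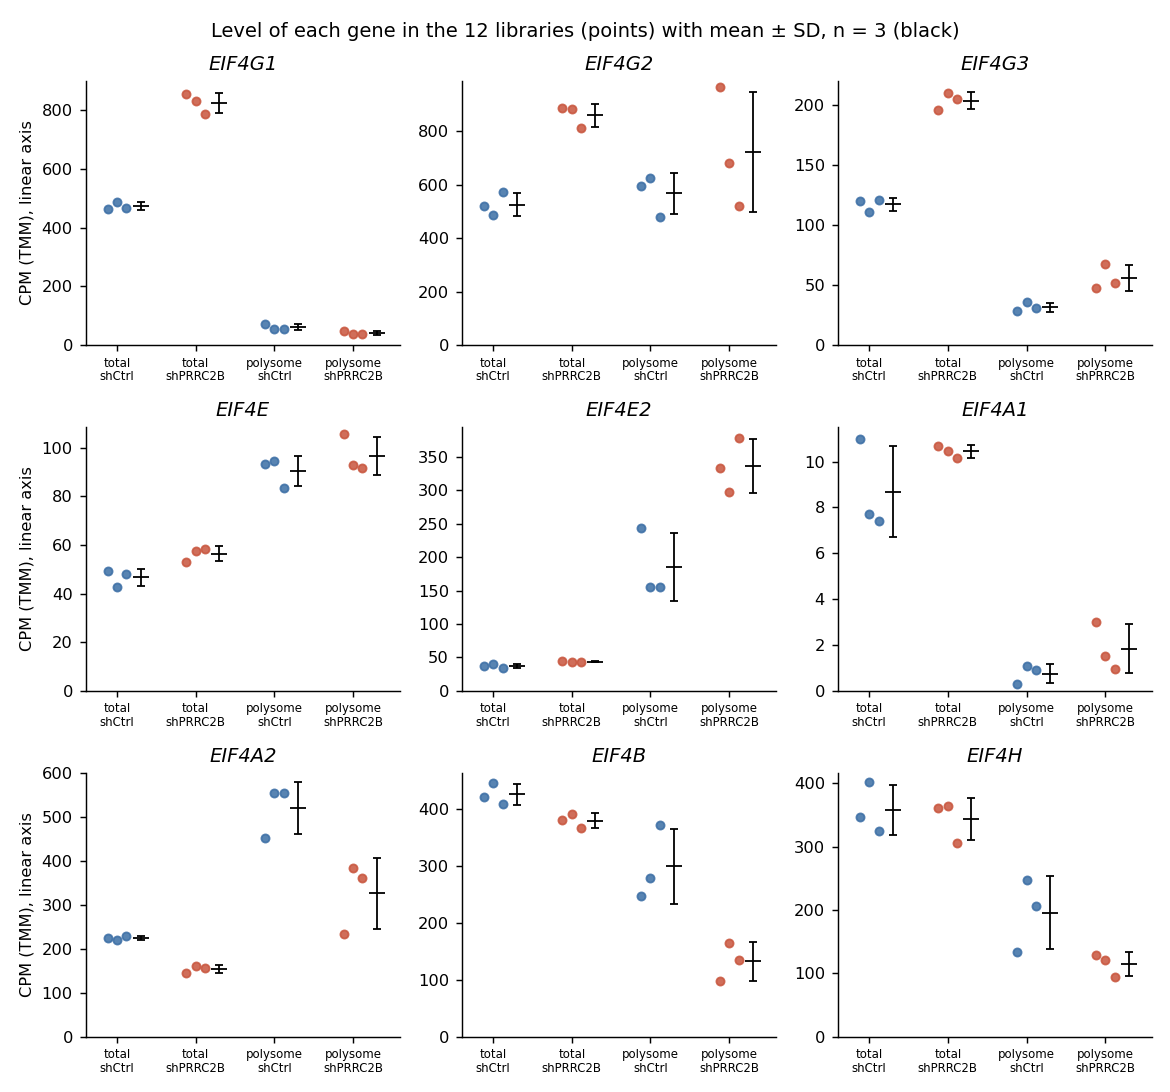
Level of each of the 9 genes in CPM (TMM scaled, linear axis from 0) in total and polysome RNA of shCtrl (blue) and shPRRC2B (red). Points are the 3 libraries of a group and the black bar beside them is the mean ± SD; EIF4G1 is the gene that was higher in all 3 shPRRC2B libraries in total RNA and lower in all 3 in polysome RNA.

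In total RNA the 3 scaffold genes rose in shPRRC2B cells and the helicase gene EIF4A2 fell, so that 4 of the 9 members were called, 44.4% of them beside 29.0% of all genes tested (14.9% higher and 14.1% lower). The cap-binding genes, EIF4A1, EIF4B and EIF4H did not pass. The median log2 change of the members was 0.26, beside 0.039 over all genes tested.

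EIF4G1, the main scaffold (chromosome 3, 184314495 to 184335358), measured 464, 489 and 468 CPM in shCtrl total RNA and 854, 832 and 787 CPM in shPRRC2B total RNA. The lowest shPRRC2B library was thus well above the highest shCtrl library, and the log2 change was 0.80 (SE 0.14, adjusted p = 0.000329), a 1.74-fold rise. EIF4G3, its close paralog (chromosome 1, 20806292 to 21177285), rose to the same extent, from 120, 111 and 121 CPM to 196, 210 and 205 CPM (log2 change 0.80, SE 0.13, adjusted p = 0.000228). EIF4G2, the scaffold without eIF4E binding (chromosome 11, 10797050 to 10808940), went from 519, 485 and 572 CPM to 885, 884 and 810 CPM (log2 change 0.71, SE 0.18, adjusted p = 0.00563). In each of the 3 scaffold genes the shCtrl and shPRRC2B libraries did not overlap.

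EIF4A2 (chromosome 3, 186783205 to 186789897) was the member that fell in total RNA. It measured 225, 221 and 228 CPM in shCtrl and 145, 160 and 157 CPM in shPRRC2B cells, again with no overlap, a log2 change of -0.55 (SE 0.16, adjusted p = 0.0127). Without shPRRC2B total replicate 1 it was -0.50 and no longer passed (adjusted p = 0.0624).

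The cap-binding genes were higher in all 3 shPRRC2B libraries of total RNA, but by less than the threshold. EIF4E (chromosome 4, 98879276 to 98929133) lay between 42.8 and 49.4 CPM in shCtrl and between 53.0 and 58.5 CPM in shPRRC2B cells (log2 difference 0.27, SE 0.12, adjusted p = 0.0793). EIF4E2 (chromosome 2, 232550659 to 232583644) lay between 34.7 and 40.3 CPM and between 42.6 and 44.1 CPM (0.21, SE 0.16, adjusted p = 0.33). Among the helpers, EIF4B (chromosome 12, 53006282 to 53042215) was at 425 ± 19.0 and 380 ± 12.9 CPM (SD, n = 3), with a log2 difference of -0.16 (SE 0.17, adjusted p = 0.491). EIF4H (chromosome 7, 74174231 to 74197122) was at 358 ± 39.4 and 343 ± 33.1 CPM, overlapping between the lines. Counted over the members, 7 of 9 had no overlap between the lines in total RNA, 5 higher and 2 lower (EIF4A2 and EIF4B) in shPRRC2B cells. The same held for 63.0% of all genes tested (34.1% higher and 28.8% lower).

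**Figure D2:**
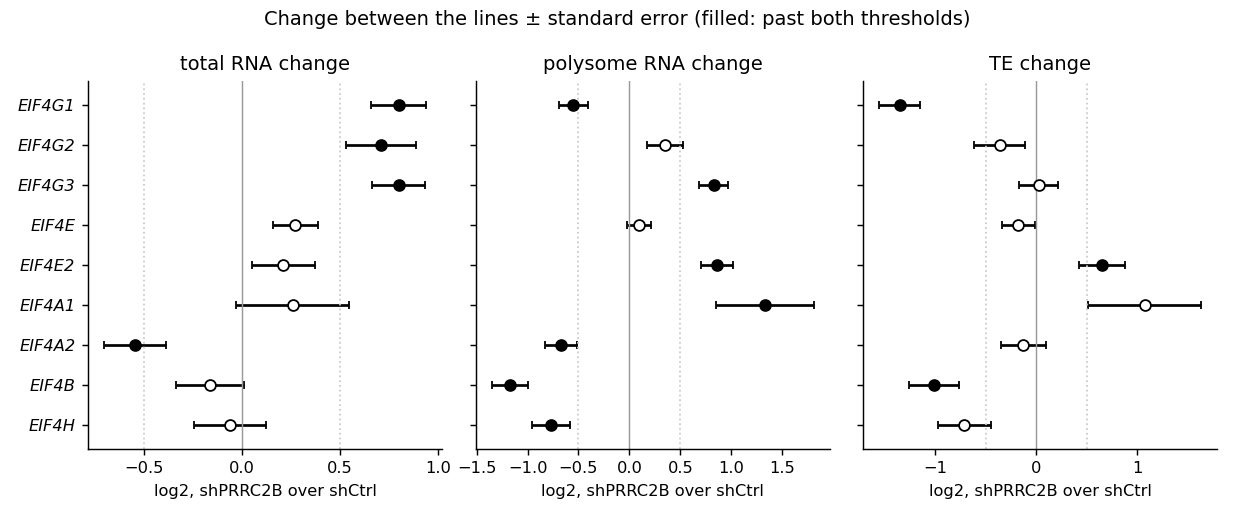
Log2 change of each gene between shPRRC2B and shCtrl in total RNA, in polysome RNA and in TE, with bars for the standard error of the fit; filled points passed both thresholds and dotted lines mark log2 values of -0.5 and 0.5. The scaffold genes EIF4G1, EIF4G2 and EIF4G3 lie side by side in total RNA (0.80, 0.71 and 0.80) and apart in polysome RNA (-0.55, 0.35 and 0.83).

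In polysome RNA the scaffold genes parted: EIF4G3 rose and EIF4G1 fell. The cap-binding gene EIF4E2 also rose, and EIF4A2, EIF4B and EIF4H fell. With EIF4A1, which was called higher on few counts, 7 of the 9 members were called (77.8%), where 39.8% of all genes tested were (18.4% higher and 21.4% lower). The median of the members was 0.096, beside -0.011 over all genes tested.

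EIF4G1 measured 71.9, 53.1 and 55.6 CPM in shCtrl polysome RNA and 48.8, 38.7 and 36.0 CPM in shPRRC2B polysome RNA. All 3 shPRRC2B libraries were lower, and the log2 change was -0.55 (SE 0.15, adjusted p = 0.00544). The call was lost with the trend on length removed (-0.31, adjusted p = 0.0821) and without shCtrl polysome replicate 1, where the change was -0.48. EIF4G3, in contrast, went from 27.9, 35.6 and 30.8 CPM to 47.8, 67.8 and 51.5 CPM, a log2 change of 0.83 (SE 0.14, adjusted p = 0.00016) with no overlap of the lines.

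EIF4G2 had the widest spread of the scaffold genes in polysome RNA. Its 3 shCtrl libraries were at 595, 625 and 480 CPM and its 3 shPRRC2B libraries at 963, 681 and 519 CPM, so that the lines overlapped (log2 difference 0.35, SE 0.18, adjusted p = 0.126). Without shPRRC2B polysome replicate 1, the highest library, the difference was -0.031. With the trend on length removed it was 0.57 and passed (adjusted p = 0.0113). That length, of all exons merged, is 8485 nt for EIF4G2, while its canonical transcript has 3794 nt.

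EIF4E2, the cap-binding protein known from repression, measured 244, 156 and 156 CPM in shCtrl polysome RNA and 333, 297 and 378 CPM in shPRRC2B polysome RNA. The ranges did not overlap, and the log2 change was 0.86 (SE 0.16, adjusted p = 0.000296), a 1.81-fold rise. EIF4E, the cap-binding subunit of eIF4F proper, was at 93.1, 94.6 and 83.3 CPM and at 105, 92.7 and 91.5 CPM, overlapping (log2 difference 0.10, SE 0.12, adjusted p = 0.533).

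EIF4A2 and both stimulators of the helicase fell together in polysome RNA. EIF4A2 went from 452, 554 and 554 CPM to 233, 383 and 361 CPM (log2 change -0.68, SE 0.16, adjusted p = 0.00216). EIF4B went from 246, 278 and 372 CPM to 96.9, 165 and 135 CPM (log2 change -1.17, SE 0.18, adjusted p = 4.59e-05), a 2.26-fold fall. EIF4H went from 133, 248 and 206 CPM to 130, 120 and 93.6 CPM (log2 change -0.77, SE 0.19, adjusted p = 0.00283). In all 3 genes every shPRRC2B library was below every shCtrl library, by a narrow margin in EIF4H, whose lowest shCtrl library was replicate 1. In polysome RNA 6 of 9 members had no overlap, 2 higher and 4 lower, which held for 43.1% of all genes tested (21.6% higher and 21.5% lower). EIF4A1 was called higher (log2 1.33, SE 0.48, adjusted p = 0.0315) on the counts given above, and the call was lost without shCtrl polysome replicate 1 (0.82, adjusted p = 0.173), without shCtrl polysome replicate 3 (1.39, adjusted p = 0.0643) and without shPRRC2B polysome replicate 1 (0.65, adjusted p = 0.302).

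In TE, EIF4G1 and EIF4B fell and EIF4E2 rose, 3 of the 9 members (33.3%), where 27.1% of all genes tested were called (10.7% higher and 16.4% lower). The share of members called was thus near that of all genes. The median of the members was -0.18, beside -0.034 over all genes tested.

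The TE of EIF4G1 changed by -1.35 on the log2 scale (SE 0.20, adjusted p = 0.000173), a 2.55-fold fall, made up of a rise in total RNA and a fall in polysome RNA. As given above, the polysome part was not called with the length trend removed or without shCtrl polysome replicate 1. The TE change was called under every alternative run, from -1.40 to -0.98, and without any 1 of the libraries, from -1.55 to -1.23. The TE of EIF4B changed by -1.01 (SE 0.25, adjusted p = 0.00577), a 2.01-fold fall, with a fall in polysome RNA and no call in total RNA. It too was called under every alternative run, from -1.06 to -0.81, and with any 1 library left out, from -1.23 to -0.88.

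The TE of EIF4E2 changed by 0.65 (SE 0.22, adjusted p = 0.0393). Leaving out libraries often ended that call: it was lost without any 1 of 10 of the 12 libraries (log2 values 0.48 to 0.70, adjusted p 0.0504 to 0.142) and stood where shPRRC2B polysome replicate 2 or shCtrl polysome replicate 1 was left out. With the trend on length removed the value was 1.11 (adjusted p = 0.00278), but that length, of all exons merged, is 11481 nt for EIF4E2, while its canonical transcript has 967 nt.

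EIF4H, the second stimulator, had a TE difference of -0.71 (SE 0.26) that just missed the threshold (adjusted p = 0.0514). It passed with DESeq2 (-0.73, adjusted p = 0.0322), and it passed without shCtrl polysome replicate 1 (-0.96, adjusted p = 0.000909) or shPRRC2B polysome replicate 1 (-0.87, adjusted p = 0.0225). EIF4G2 had -0.36 (SE 0.25, adjusted p = 0.306), which passed without shPRRC2B polysome replicate 1 (-0.69, adjusted p = 0.0203). With both polysome libraries numbered 1 left out, an alternative chosen after seeing the data, 5 members were called in TE: EIF4G1, EIF4G2, EIF4B and EIF4H lower and EIF4E2 higher. Calls over all genes rose as well, from 4916 of 18166 genes tested to 6951 of 18813.

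The remaining members had TE differences of 0.026 for EIF4G3 (SE 0.19), -0.18 for EIF4E (SE 0.16), -0.13 for EIF4A2 (SE 0.22) and 1.07 for EIF4A1 (SE 0.56), none of which passed. EIF4G3 and EIF4A2 are the members called in the same direction in total and in polysome RNA, both higher for EIF4G3 and both lower for EIF4A2. EIF4G1 is the one called in opposite directions, though its polysome call did not hold in every alternative.

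**Figure D3:**
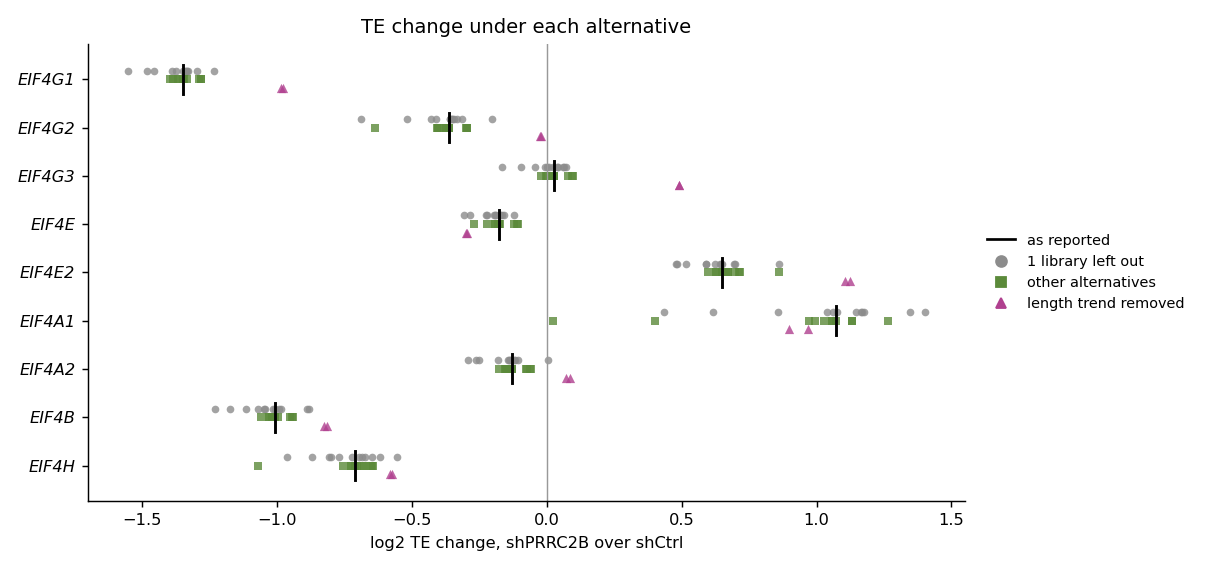
Log2 TE change of each gene as reported (black line), with 1 library left out (grey circles), with the length trend removed (purple triangles) and under the other alternatives (green squares). EIF4G1 and EIF4B stay below -0.8 throughout, while EIF4G2 ranges from -0.69 to -0.020.

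Over 15762 genes with a known length (86.8% of those tested), the log2 TE change had a Spearman rho of -0.41 with the length of the canonical transcript, as a description across genes that share libraries. The canonical transcripts of the members range from 967 nt (EIF4E2), 1886 nt (EIF4A2), 2427 nt (EIF4E) and 2563 nt (EIF4H) through 3794 nt (EIF4G2) and 3856 nt (EIF4B) to 5405 nt (EIF4G1) and 6397 nt (EIF4G3). EIF4G3, the longest, had a TE difference near 0. With the trend on the merged exon length removed from each library, the TE changes of EIF4G1 and EIF4B were -0.99 and -0.81 and still passed. That of EIF4G2 was -0.020, and that of EIF4G3 was 0.49 and did not pass. Merged exons were longer than the canonical transcript in every member, at 8752 nt for EIF4G1, 8485 nt for EIF4G2 and 11885 nt for EIF4G3.

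Within each line the members were spread widely between polysome and total RNA. EIF4E2, EIF4A2 and EIF4E were higher in polysome RNA and EIF4G1, EIF4G3, EIF4H, EIF4B and EIF4A1 lower, in both lines, except that EIF4E lay below 0 in both under total-count scaling or TMM within each fraction and EIF4B was at 0.023 in shCtrl once the length trend was removed. EIF4G2 was called in neither line (log2 0.11, SE 0.18, adjusted p = 0.589 in shCtrl and -0.25, SE 0.18, adjusted p = 0.197 in shPRRC2B), but its value followed the processing. Removing the length trend gave 1.08 in shCtrl and 1.06 in shPRRC2B, total-count scaling gave -0.89 and -1.19, and without shPRRC2B polysome replicate 1 the value in shPRRC2B was -0.60, all of which passed. In each line 8 of the 9 members were called (88.9%), beside 72.3% of all genes in shCtrl (32.5% higher and 39.8% lower) and 78.9% in shPRRC2B (36.6% higher and 42.3% lower). The lines share no library here, but TE is the difference of the 2 contrasts.

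EIF4G1 stood lowest of the members with ample counts, at -2.97 (SE 0.15) in shCtrl and -4.32 (SE 0.16) in shPRRC2B cells, which is 7.86-fold and 20.0-fold lower in polysome than in total RNA. EIF4G3 was at -1.90 (SE 0.14) and -1.87 (SE 0.14), the latter -0.17 and not called once the length trend was removed (adjusted p = 0.244). The opposite end was EIF4E2, at 2.30 (SE 0.17) and 2.95 (SE 0.17), 4.93-fold and 7.72-fold higher in polysome RNA.

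EIF4A2 was at 1.21 (SE 0.16) and 1.08 (SE 0.16) and EIF4E at 0.95 (SE 0.12) and 0.78 (SE 0.12). The stimulators lay below 0 in both lines, EIF4H at -0.87 (SE 0.19) and -1.58 (SE 0.19) and EIF4B at -0.51 (SE 0.17) and -1.52 (SE 0.18). The value of EIF4B in shCtrl was close to the threshold and was not called with DESeq2's test or size factors, nor was it when shCtrl polysome replicate 1 (-0.42), the second such replicate (-0.48) or the second of shCtrl total RNA (-0.49) was left out.

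These values move with the scaling of polysome against total libraries. The median over all genes was -0.22 in both lines with TMM over all libraries, and -1.22 and -1.16 with total counts. The share of calls that were higher then went from 45.0% to 23.1% in shCtrl and from 46.4% to 29.6% in shPRRC2B. On that scale EIF4E was at -0.047 and -0.17, EIF4A2 at 0.21 and 0.13 and no longer called, and EIF4G2 at -0.89 in shCtrl. Relative to the median of all genes EIF4E, EIF4A2 and EIF4E2 lay above it and EIF4G1 and EIF4G3 below it on either scale. The log2 polysome-to-total ratio had a Spearman rho with canonical length of -0.56 in shCtrl and -0.61 in shPRRC2B cells across the genes with a length.

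**Figure D4:**
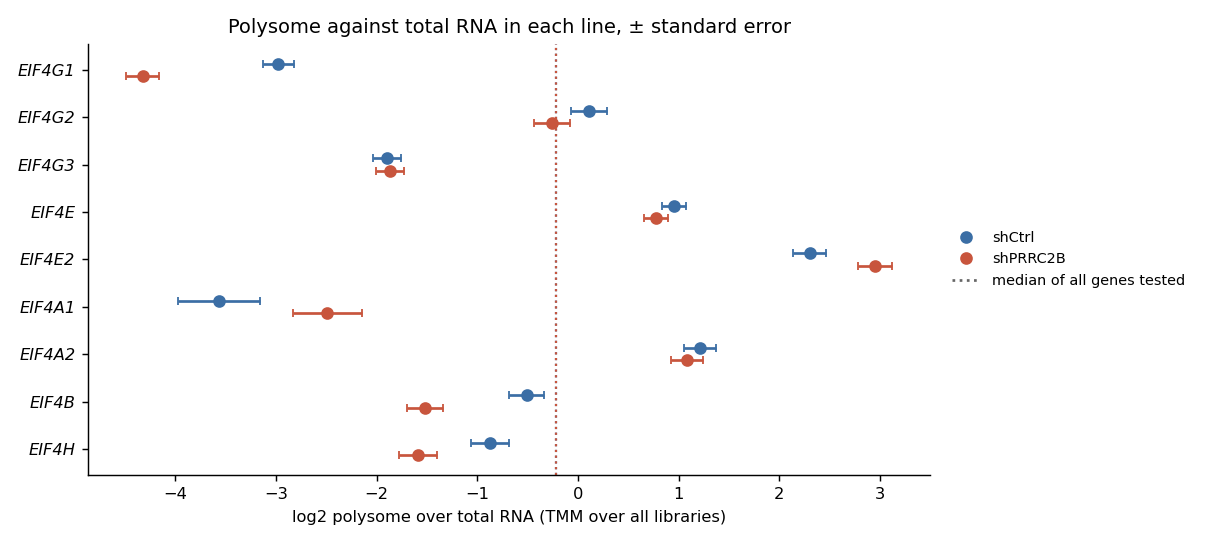
Log2 polysome over total RNA of each gene in shCtrl (blue) and shPRRC2B (red) with the standard error of the fit; the dotted line is the median of all genes tested, -0.22 in both lines. EIF4G1 is the farthest below among genes with ample counts and EIF4E2 the farthest above, and the distance between the lines in a row is the TE change.

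A ratio of 2 members in the same library needs no scaling between libraries. The pairs EIF4G2 to EIF4G1, EIF4G3 to EIF4G1, EIF4E2 to EIF4E and EIF4A2 to EIF4A1 were compared between the lines in both fractions, 8 comparisons, with counts divided by merged exon length. With 3 libraries against 3 the smallest p that the exact permutation test can give is 0.1, so no pair could pass, and the ratios are a description.

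In total RNA the ratios of the scaffold genes overlapped between the lines. The log2 ratio of EIF4G3 to EIF4G1 was -2.46 in both lines (exact two-sided permutation p = 1.0), and that of EIF4G2 to EIF4G1 was 0.19 ± 0.15 in shCtrl and 0.104 ± 0.024 in shPRRC2B cells (SD, n = 3, exact permutation p = 0.4). In polysome RNA the ratios of the lines did not overlap. EIF4G2 to EIF4G1 was at 3.093, 3.603 and 3.156 in shCtrl and 4.35, 4.18 and 3.90 in shPRRC2B cells, a difference of 0.86, which as a linear ratio is 9.74 against 17.7 (exact permutation p = 0.1, adjusted p = 0.16). EIF4G3 to EIF4G1 was at -1.81, -1.02 and -1.29 and at -0.47, 0.37 and 0.076, a difference of 1.36 (exact permutation p = 0.1, adjusted p = 0.16).

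The cap-binding pair showed the same pattern. EIF4E2 to EIF4E was at -1.52 ± 0.20 and -1.58 ± 0.098 in total RNA (SD, n = 3, exact permutation p = 0.8). In polysome RNA it was at 0.18, -0.49 and -0.31 in shCtrl and 0.45, 0.47 and 0.84 in shPRRC2B cells, a difference of 0.79 (exact permutation p = 0.1, adjusted p = 0.16). The sign of this ratio in total RNA follows the length taken: EIF4E2 has 11481 nt of merged exons and a canonical transcript of 967 nt. By canonical length EIF4E2 stood above EIF4E in shCtrl total RNA, at 38.8 against 19.2 CPM per kilobase. The differences between the lines do not depend on the length. EIF4A2 to EIF4A1 differed by -0.84 in total RNA and -2.04 in polysome RNA, but it rests on the few counts of EIF4A1.

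**Figure D5:**
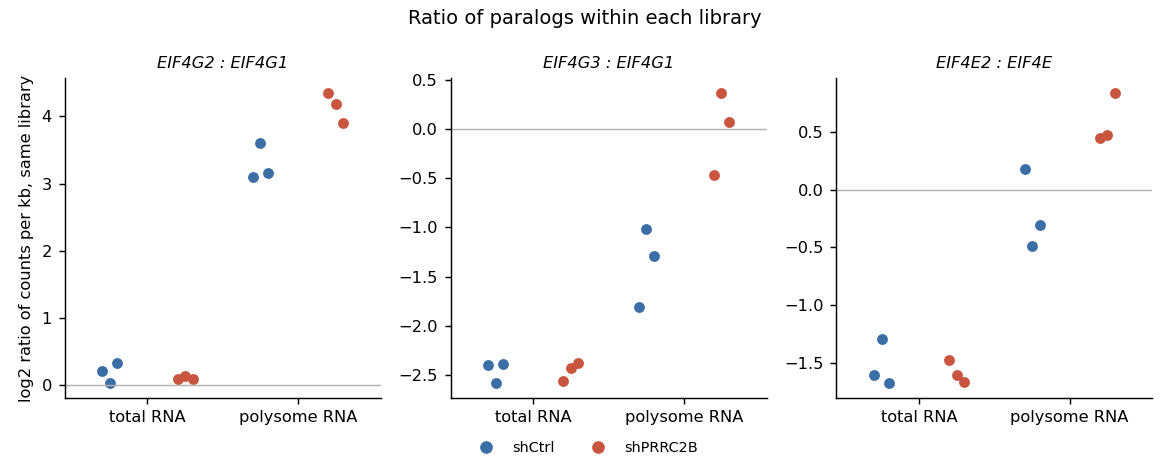
Log2 ratio of 2 paralogs in the same library, counts per kilobase of merged exons, in total and polysome RNA; each point is 1 library of shCtrl (blue) or shPRRC2B (red), and each panel has its own axis. The lines overlap in total RNA and not in polysome RNA for all 3 pairs shown.

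The order of the genes by level was taken per length, in CPM per kilobase of merged exons. In shCtrl total RNA EIF4B was highest (70.6 ± 3.15, SD, n = 3), then EIF4G2 (61.9), EIF4H (61.6) and EIF4G1 (54.1), neighbours whose libraries overlapped, then EIF4A2 (36.6). The libraries of EIF4B overlapped with those of EIF4H but not with those of EIF4G2. EIF4G3 (9.85) and EIF4E (9.39) followed EIF4A2 and overlapped, and EIF4E2 (3.27) and EIF4A1 (1.67) were last. The place of EIF4A1 rests on values that, as given above, are not the level of its mRNA. In shPRRC2B total RNA the scaffolds EIF4G2 (101.3) and EIF4G1 (94.2) stood first and overlapped, above EIF4B (63.0) and EIF4H (59.1), which overlapped as well.

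The order in polysome RNA was another one. In shCtrl polysome RNA EIF4A2 was first at 84.8 CPM per kilobase, apart from the next gene, EIF4G2 (66.8), which overlapped with EIF4B (49.6), as EIF4B did with EIF4H (33.7). EIF4E (18.2) and EIF4E2 (16.1) followed and overlapped with each other, with EIF4G1 (6.88) and EIF4G3 (2.65) far below. In shPRRC2B polysome RNA EIF4G2 (84.95) and EIF4A2 (53.1) led and overlapped, and EIF4G1 (4.70) and EIF4G3 (4.69) had become level. EIF4A1 was last in all 4 groups, which does not show that its mRNA was the least abundant. Per length of the canonical transcript in place of all exons, EIF4H (139.6) and EIF4G2 (138.5) led in shCtrl total RNA. EIF4B was the fourth there. The order thus depends on the length that is taken, also among the lower genes. By the canonical length EIF4E2 (38.8) stood above EIF4E (19.2) and EIF4G3 (18.3). In polysome RNA that length moved EIF4E2 up, to second in shCtrl (191.5, overlapping with EIF4A2 at 275.7) and to first in shPRRC2B (347.3), with no overlap with EIF4G2 at 190.0.

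The genes whose log2 CPM over the 12 libraries was most like that of EIF4G1, of 10039 compared, were FASN (Pearson r = 0.998), ACLY, SF1, VCP and MACF1 (r = 0.997 or above). For EIF4G2 they were TMEM184C (r = 0.927), JPT2, AKIRIN1, UBE2K and RBPMS2 (r = 0.923). Over the same libraries EIF4G1 had an r of 0.90 with EIF4G3, 0.24 with EIF4G2 and -0.95 with EIF4E2. Libraries of both fractions enter these values, so the polysome-to-total difference of each gene is part of them, and they are given with no test.

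Regulators and partners of eIF4F, a list of 29 genes of which 27 were tested, fell in TE more often than they rose. None was called higher and 13 were called lower, 48.1% of those tested, where 27.1% of all genes were called and 16.4% were lower, and the median was -0.59. Neither this comparison nor that of the eIF3 subunits below was matched for transcript length, with which the TE change fell over all genes (Spearman rho -0.41). At an unadjusted p under 0.05 there were 1 higher and 15 lower, and DESeq2 called 0 higher and 14 lower. In total RNA 3 were higher and 3 lower, 22.2% of those tested, beside 29.0% of all genes. In polysome RNA 2 were higher and 12 lower, 51.9% of those tested, beside 39.8% of all genes.

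Among the poly(A)-binding proteins, which bridge the tail of the mRNA to eIF4G, PABPC1 had the lowest TE change of the list (-1.60, SE 0.34, adjusted p = 0.00248), and PABPC4 was at -0.59. LARP1, which binds mRNAs with a terminal oligopyrimidine motif, was at -1.55 (SE 0.25, adjusted p = 0.000282). The inhibitors of eIF4F were not alike: EIF4EBP2, which keeps eIF4E from eIF4G, changed by -1.20 and PDCD4, which binds eIF4A, by -0.92, while EIF4EBP1 had the highest TE value of the list at 0.76 (SE 0.35, adjusted p = 0.119) and was not called.

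GIGYF1, a partner of eIF4E2 in repression, was at -1.46 and CYFIP1, which binds eIF4E, at -0.96. GIGYF2, from the same list, was at 0.34 (SE 0.25) and was not called. The level of GIGYF1 in polysome RNA was low, at 4.77 to 6.77 CPM in shCtrl and 1.33 to 2.20 CPM in shPRRC2B cells. The nuclear cap-binding protein NCBP1 was at -1.21, while NCBP2 and NCBP3 were at 0.033 and -0.13 and were not called. The helicases DHX29 and DDX3X were at -1.06 and -0.89. FXR1 was at -0.85, EIF4E3, another cap-binding paralog, at -0.80, and the kinase RPS6KB1, which phosphorylates eIF4B, at -0.72. EIF4E3 was the one of these that also fell in total RNA (log2 change -1.29, SE 0.14), from 32.3 to 33.7 CPM in shCtrl to 12.9 to 14.5 CPM in shPRRC2B cells.

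The subunits of eIF3, which eIF4G binds, numbered 14, all tested. In TE 6 fell (42.9%, beside 27.1% of all genes) and none rose: EIF3A (-1.42, SE 0.19, adjusted p = 7.81e-05), EIF3M (-0.88), EIF3J (-0.78), EIF3I (-0.78), EIF3B (-0.75) and EIF3E (-0.71). At an unadjusted p under 0.05 there were 0 higher and 7 lower, and DESeq2 called 0 and 6. The highest value was that of EIF3CL (1.32, SE 1.36, adjusted p = 0.506), whose reads cannot be split well from its near-identical copy EIF3C. In shCtrl total RNA EIF3CL was at 1.32, 2.30 and 29.3 CPM, so replicate 3 stood far above the others. EIF3C was at 20.4, 32.8 and 12.7 CPM there, lowest in that same replicate. In total RNA none of the 14 was called with edgeR, beside 29.0% of all genes tested. There 2 higher and 2 lower had an unadjusted p under 0.05, and DESeq2 called 0. In polysome RNA 6 fell, EIF3A, EIF3B, EIF3D, EIF3E, EIF3I and EIF3M, and none rose. That is 42.9% called, near the 39.8% of all genes tested, of which 21.4% were lower.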

How the data were processed

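Total and polysome-associated RNA of Dox-induced shCtrl and shPRRC2B HEK293T lines were sequenced from poly(A)-enriched RNA. The authors deposited raw counts of read pairs per gene name, with no normalization. Per the methods, reads were trimmed (Trimmomatic), mapped to GRCh38 (Hisat) and counted with featureCounts on GENCODE 38. Pairs on several genes or places were not counted under the stated options, so overlapping genes read low. The table held 1 column per library and 0 other columns of values. Samples were grouped by their labels. The labels do not state more about the replicates than that they are biological.

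Counts were analysed with edgeR 4.0.16 in R 4.3.3, and in the alternatives with DESeq2 1.42.0 and limma 3.58.1. The filter was filterByExpr (minimum count 10 by group), the scaling TMM over the 12 libraries, and the fit glmQLFit and glmQLFTest with 1 coefficient per group. The Benjamini-Hochberg adjustment covered every gene tested. SE is the log2 value over the root of F. Total counts per library set the precision of low genes, and no single-library share is given, so no binomial interval is printed. Positions, lengths and shared exons came from GENCODE 44, a later release than that of the counts, on GRCh38. The fit was tested on simulated data.

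The 9 members and both lists (29 regulators and partners, 14 eIF3 subunits) were chosen with earlier results of these data known. Named are the members, PRRC2B, SENP3-EIF4A1, each list gene called for TE, the lowest and highest TE change of each list, and the 5 genes most like EIF4G1 and EIF4G2 in log2 CPM (mean of at least 10 CPM). Other genes were chosen after their values were seen. The alternatives tried were DESeq2, other scalings (RLE, total counts, TMM within each fraction), other filters on low counts (any count, or 10 in every library), limma on log2(CPM + 1), a replicate block, a culture block, the trend of the counts on merged exon length removed (lowess, span 0.3, the median length standing in where none was known), the libraries of 1 fraction alone, EIF4A1 summed with SENP3-EIF4A1, no minimum log2 change, canonical lengths, and each library left out. Leaving out both polysome libraries numbered 1 was added after seeing the data.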

Additional observations from a re-analysis of the deposited data

Results flagged for a closer look

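The polysome-to-total ratio of 22 of the genes named differed between the lines by the test of that difference itself (edgeR's quasi-likelihood test of the interaction of line and fraction, with 27.1% of all genes tested past the same thresholds). The log2 differences, shPRRC2B minus shCtrl, were -1.35 for EIF4G1, -1.01 for EIF4B and 0.65 for EIF4E2. Among the regulators and partners they were -1.60 for PABPC1, -1.55 for LARP1, -1.46 for GIGYF1, -1.21 for NCBP1, -1.20 for EIF4EBP2, -1.06 for DHX29, -0.96 for CYFIP1, -0.92 for PDCD4, -0.89 for DDX3X, -0.85 for FXR1, -0.80 for EIF4E3, -0.72 for RPS6KB1 and -0.59 for PABPC4. Among the eIF3 subunits they were -1.42 for EIF3A, -0.88 for EIF3M, -0.78 for EIF3J and EIF3I, -0.75 for EIF3B and -0.71 for EIF3E. All these differences are given without removal of the length trend. No group had 4 or more libraries, so single libraries were not tested as outliers.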

How the results depend on the processing

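The number of members called stayed within 1.5 times the reported one under every alternative but the one named next, and leaving out 1 library gave 2 to 4 in TE, 3 to 4 in total RNA, 5 to 7 in polysome RNA, 7 to 8 for polysome against total RNA in shCtrl and 8 to 9 in shPRRC2B. With both polysome libraries numbered 1 left out, 5 members were called in TE in place of 3. Over all genes tested it was 6951 of 18813 in place of 4916 of 18166. With every gene tested weighed the same, deviations of same-numbered libraries correlated between -0.06 and 0.05 over 18 pairs. Pairs with other numbers correlated between -0.07 and 0.08. Among the members, polysome replicate 1 was the lowest library in both lines for EIF4G3, EIF4A2 and EIF4B. For EIF4G1 it was the highest in both. Its place differed between the lines in EIF4G2, EIF4E, EIF4E2, EIF4A1 and EIF4H. Whether same-numbered libraries shared a shift in these or other abundant genes was not tested. Polysome replicate 1 was the library farthest from the others of its group in both lines. With the replicate block 4 members were called in TE, since EIF4H passed (-0.71, adjusted p = 0.0453), and 4, 7, 8 and 8 in the other contrasts, as without the block. Signs turned mostly for values near 0. In TE, EIF4G3 was at -0.023 with any count as the filter, between -0.17 (without shPRRC2B polysome replicate 2) and 0.070 with 1 library left out and at -0.0022 without both polysome libraries numbered 1. EIF4A2 was at 0.084 with the length trend removed, 0.073 with the replicate block as well and between -0.29 and 0.0028 with 1 library left out. PRRC2B was between -0.15 and 0.30 with 1 library left out and at -0.32 without both polysome libraries numbered 1. With 1 library left out, EIF4H lay between -0.13 and 0.029 in total RNA, EIF4G2 between -0.031 and 0.46 in polysome RNA and EIF4E between -0.083 and 0.091 in polysome RNA, where it was at -0.045 without both libraries numbered 1. For polysome against total RNA, total-count scaling gave EIF4G2 -0.89 and EIF4E -0.047 in shCtrl and EIF4E -0.17 in shPRRC2B; TMM within each fraction gave -0.899, -0.054 and -0.16. EIF4G2 in shCtrl was at -0.018 with any count, EIF4B in shCtrl at 0.023 with the length trend removed and 0.0098 with the block as well, and EIF4G2 in shPRRC2B at 1.06 and 1.04. The cause was not tested. By canonical length the ranks in shCtrl total RNA were 1 for EIF4H, 3 for EIF4A2, 4 for EIF4B, 5 for EIF4G1, 6 for EIF4E2 and 8 for EIF4G3. EIF4A1 had too few counts for the filter of 10 in every library.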

Other observations

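EIF4A1P10, a processed copy of EIF4A1 chosen here after its values were seen, held more counts than EIF4A1 itself. It was at 14.4, 12.6 and 11.9 CPM in shCtrl total RNA and 22.1, 24.0 and 22.6 CPM in shPRRC2B total RNA, where EIF4A1 was at 10.98, 7.70 and 7.39 CPM and 10.7, 10.5 and 10.1 CPM. In polysome RNA EIF4A1P10 was at 51.2 ± 18.8 and 40.4 ± 8.48 CPM (SD, n = 3) and EIF4A1 at 0.75 ± 0.42 and 1.83 ± 1.06 CPM. Whether pairs counted on the copy came from EIF4A1 was not tested. SENP3-EIF4A1, the readthrough entry, lay between 0 and 1.15 CPM in all 12 libraries, and with its counts added to those of EIF4A1 the polysome RNA difference was 1.53 (adjusted p = 0.00561, edgeR) and the TE difference 1.27 (adjusted p = 0.0639).

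EIF4EBP1, an inhibitor of eIF4E, stood among the genes with more polysome than total RNA. It was at 127 to 166 CPM in shCtrl and 87.5 to 91.3 CPM in shPRRC2B total RNA, a log2 change of -0.68 (SE 0.25, adjusted p = 0.0421, edgeR), and at 1140 to 2111 and 1085 to 2284 CPM in polysome RNA, with replicate 1 the lowest in both lines.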
